A study of Mus musculus with 6 samples.

Results

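The genes of the cytosolic ribosomal proteins were followed in mouse macrophages that had, or by their label had lost, Xbp1. They were taken as the protein-coding genes whose symbols start with Rpl, Rplp or Rps and go on with the number of the protein, together with Rpsa, without pseudogenes and without the S6 kinases. This gave 84 of the 54532 genes in the deposited table, 52 of the large and 32 of the small ribosomal subunit. The naming rule itself uses no expression value, but it was chosen with earlier results of these data known. RNA came from 6 samples of bone marrow-derived macrophages of C57BL/6 mice of 32 to 34 weeks: 3 XKO samples (Xbp1ΔMf) and 3 XWT samples (Xbp1FL/FL). XBP1 is a transcription factor through which stress in the endoplasmic reticulum reaches the nucleus. Xbp1FL/FL cells carry the floxed gene, and Xbp1ΔMf marks its deletion in macrophages. Cells of both groups had been primed with lipopolysaccharide (LPS), a bacterial activator of macrophages, before 48 h of culture in medium conditioned by wild-type primary hepatocytes. The comparison is therefore of genotype within that treatment, with no unprimed or unconditioned cells. The labels name neither the Cre line behind the deletion nor separate animals or cultures behind the 3 samples of a group, so each p below weighs a difference against a spread that may be technical.

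Cytosolic ribosomes translate messenger RNA in every cell. Their large subunit forms the peptide bonds, and their small subunit binds the messenger RNA and checks each codon. Both are assembled in the nucleolus on ribosomal RNA, and ribosomal proteins made in excess are degraded. Messages of ribosomal proteins begin with a run of pyrimidines, the TOP tract (terminal oligopyrimidine tract), through which the kinase complex mTORC1 and the protein LARP1 control their translation and stability. In activated macrophages, the rate of translation is one of the controls on cytokine output.

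Total counts lay between 28354866 and 30891729 per library. Xbp1 averaged 77.6 ± 1.58 CPM in XKO and 149 ± 15.0 CPM in XWT (SD, n = 3 each). CPM are counts scaled to library size with TMM factors. Its log2 fold change of XKO over XWT was -0.94 ± 0.077 (SE; edgeR adjusted p = 1.93e-06), and since the row covers the whole gene this checks the deletion only in part. The macrophage gene Lyz2 stood at 13774, 14132 and 14915 CPM in XKO, against 34344, 31758 and 27319 CPM in XWT, where values are in the order of libraries 1, 2 and 3, as everywhere below. Markers of some other cells differed between the groups. The 13 fibroblast and stroma markers, none of them at 0 in all libraries, summed to 69.4 to 85.5 CPM in XKO and 734 to 852 CPM in XWT, and 11 of 11 tested were lower. The 10 neutrophil markers summed to 98.5 to 106 CPM in XKO and 69.4 to 82.4 CPM in XWT, and 7 of 9 tested were higher. The 10 macrophage markers summed to 25667 to 27383 CPM in XKO and 40238 to 48512 CPM in XWT, and 3 of 10 were lower. Lyz2 is one of these 10 and makes up most of each sum and of the gap between the groups. The 8 T and B lymphocyte markers summed to 2.35 to 2.64 CPM in XKO and 4.08 to 4.51 CPM in XWT; the 1 tested was lower, and Cd3e, Cd8a and Pax5 were at 0 in every library. The 6 erythroid and megakaryocyte markers summed to 50.7 to 53.9 CPM in XKO and 48.2 to 52.6 CPM in XWT, with neither of 2 tested called and Hba-a1 and Hbb-bs at 0 in every library, and all 7 hepatocyte markers were at 0. Genes of ribosomal RNA took 0.0232%, 0.0196% and 0.0621% in XKO, against 0.131%, 0.0777% and 0.11% in XWT. The part of these differences in the values below was not tested, and in such bulk samples fewer cells of a type and less RNA per cell cannot be told apart.

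As a share of all counts, the 84 genes were lower in every XKO library than in any XWT library. They took 2.89%, 2.84% and 2.85% in XKO, with 95% Wilson intervals of 2.88 to 2.89%, 2.83 to 2.84% and 2.84 to 2.85%. They took 3.05%, 3.44% and 3.06% in XWT, with intervals of 3.04 to 3.05%, 3.44 to 3.45% and 3.06 to 3.07%. These intervals cover counting error only and are far narrower than the gap between XWT 2 and the other XWT libraries. The group means were 2.86 ± 0.025% in XKO and 3.18 ± 0.22% in XWT (SD, n = 3 each), a difference of -0.33 percentage points that was -0.20 without XWT 2. Large subunit genes made up 1.66 ± 0.017% of the counts in XKO and 1.83 ± 0.13% in XWT (SD, n = 3 each). Small subunit genes made up 1.20 ± 0.013% in XKO and 1.35 ± 0.093% in XWT, and the ratio of large to small subunit counts was 1.38 ± 0.018 in XKO and 1.36 ± 0.0100 in XWT (SD, n = 3 each). Genes of mitochondrial ribosomal proteins took 0.191 ± 0.0017% in XKO and 0.189 ± 0.0099% in XWT (SD, n = 3 each), with overlapping libraries. No test was made on these sums.

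The ribosomal protein genes varied far more among the XWT than among the XKO libraries. The median SD of log2 CPM over the 82 genes with enough counts to test was 0.0324 in XKO and 0.161 in XWT, and 76 of the 82 had the larger SD in XWT. No such median was taken over all tested genes, so this spread is not shown to be particular to ribosomal protein genes. XWT 2 was the highest XWT library for 57 genes and XWT 3 the lowest for 50. Relative to each gene's mean over the 6 libraries, the median log2 level of the large subunit genes was -0.10, -0.11 and -0.09 in XKO and 0.057, 0.24 and 0.016 in XWT. That of the small subunit genes was -0.13, -0.11 and -0.08 in XKO and 0.079, 0.23 and 0.021 in XWT. XWT 3 thus lay nearest to XKO and XWT 2 farthest from it, and results that turn on a single library are also given without it.

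**Figure D1:**
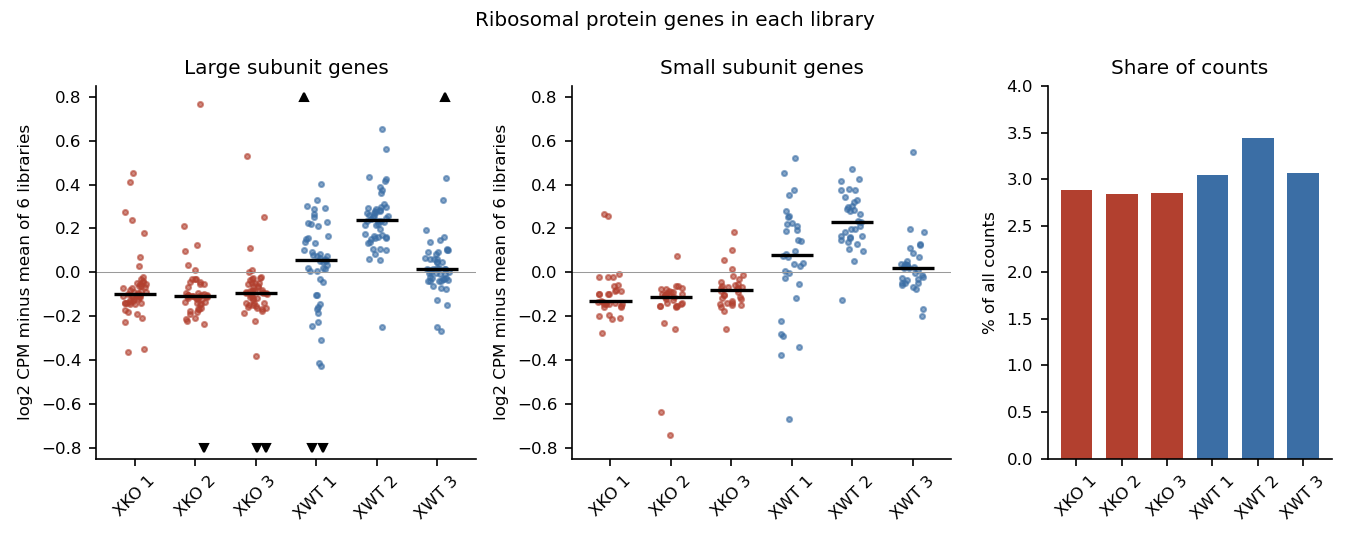
Left and middle: log2 CPM of each tested large and small subunit gene minus that gene's mean over the 6 libraries, with 1 point per gene, XKO libraries in red and XWT libraries in blue; bars are medians, and triangles at the panel edges mark 7 values larger than 0.8 in size. Right: percent of each library's counts in the 84 genes; the XKO libraries lie between 2.84% and 2.89% and XWT 2 is the highest at 3.44%.

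Single genes were tested with edgeR's quasi-likelihood test over 14333 genes, and a gene was called at an adjusted p (Benjamini-Hochberg) under 0.05. Of the 84 genes, 82 passed the filter on low counts. Rpl10l had no count in any library, and Rpl3l had 2 counts each in XKO 2 and XWT 2 and 0 elsewhere. Where large subunit genes passed the test, they were lower in XKO: 14 of 50 were called lower and 0 higher, against 7.99% of all tested genes called lower and 6.00% called higher. Small subunit genes showed the same, with 9 of 32 called lower and 0 higher. At an unadjusted p under 0.05, 28 large and 23 small subunit genes were lower, and 1 large and 0 small subunit genes were higher. The share of all tested genes at this unadjusted threshold was not counted. DESeq2 called 19 large and 14 small subunit genes lower and 1, Rpl23a, higher. Of the 25431 genes in that fit, 1229 (4.83%) were called lower and 882 higher.

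Most genes that did not pass the test lay on the same side of 0 as those that did. The median log2 fold change was -0.21 for the large and -0.22 for the small subunit, beside 0.0014 for all tested genes. Values below 0 were found in 46 of 50 large and 31 of 32 small subunit genes, beside 49.8% of all tested genes. In 28 large and 21 small subunit genes every XKO library lay below every XWT library, a pattern found in 18.6% of all tested genes. In 1, the small subunit gene Rps10, every XKO library lay above every XWT library, as in 17.5% of all tested genes. The falls of the called genes were modest, from 14.6% to 26.6% for the large and from 15.8% to 28.4% for the small subunit.

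The counts of calls moved with the libraries used. Large subunit genes called lower numbered 4, 3 and 4 without XKO 1, XKO 2 and XKO 3, 17 without XWT 1, 8 without XWT 2 and 31 without XWT 3. Small subunit genes called lower numbered 1, 1 and 3 without XKO 1, XKO 2 and XKO 3, 10 without XWT 1, 2 without XWT 2 and 22 without XWT 3. Of all tested genes, 4.09%, 3.63% and 4.08% were called lower without XKO 1, XKO 2 and XKO 3, 6.61% without XWT 1, 5.09% without XWT 2 and 14.8% without XWT 3. Scaling by library size alone gave 9 large and 1 small subunit genes called lower, beside 5.23% of all tested genes. All 23 genes called here lay below 0 under each of these settings. Rpl35a and Rps14 were among those called under each of 15 alternative settings. The median over both subunits lay between -0.27 without XWT 3 and -0.13 without XWT 2.

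**Figure D2:**
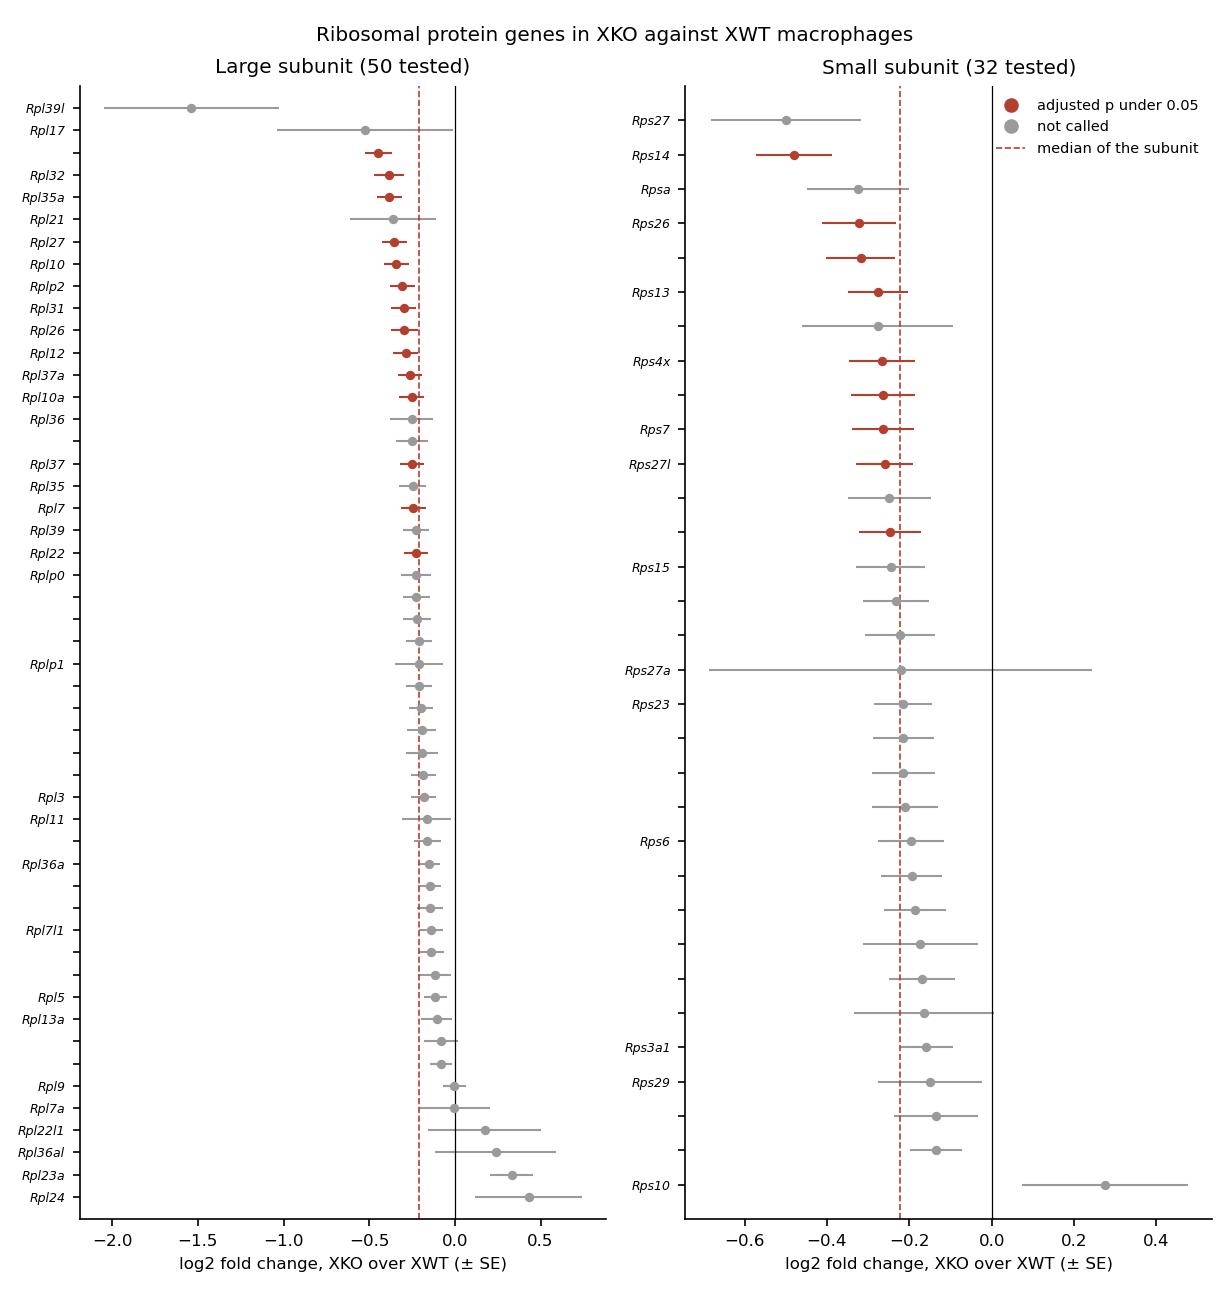
Log2 fold change of XKO over XWT with its SE for the 50 tested large (left) and 32 tested small (right) subunit genes, sorted within each panel, with the genes described in the text named; red points passed the test and the dashed line is the subunit's median, -0.21 for the large and -0.22 for the small subunit. The 14 and 9 red points all lie left of 0, and Rpl39l, at -1.54, lies farthest left with an SE of 0.51 and did not pass.

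**Figure D3:**
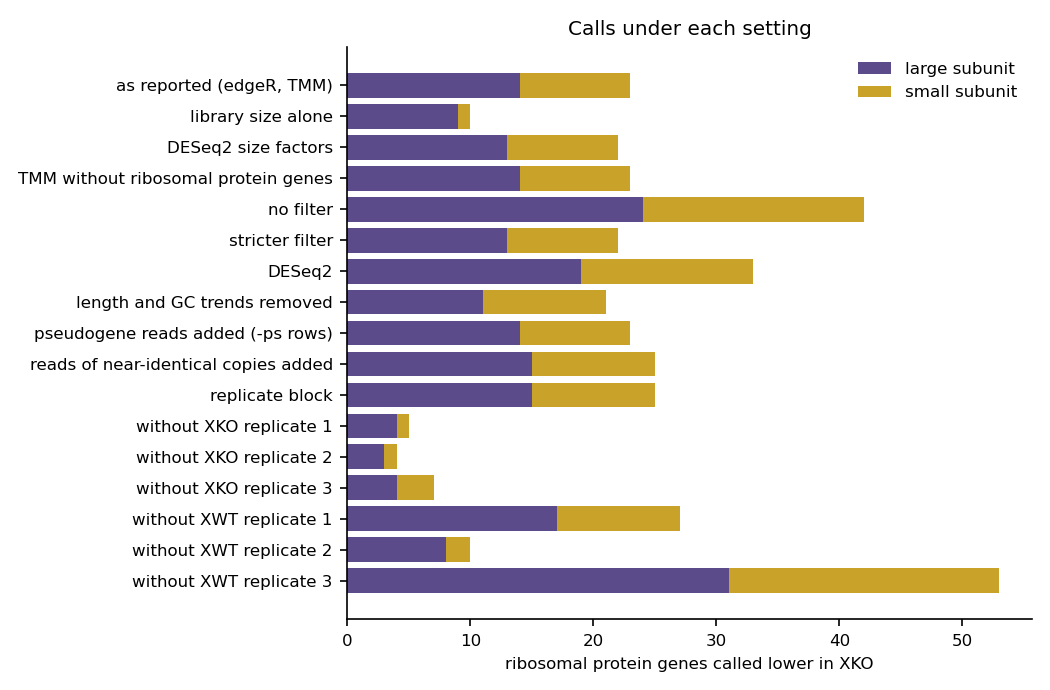
Number of ribosomal protein genes called lower in XKO (bars, large subunit in purple and small subunit in yellow) as reported and under each other setting. The total is 23 as reported, runs from 4 without XKO 2 to 53 without XWT 3 and is 10 with library size alone.

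Among the large subunit genes called lower, Rpl35a (ENSMUSG00000060636, chromosome 16 from 33056453 to 33060189, plus strand) is one of the ribosomal protein genes mutated in the human marrow failure disease Diamond-Blackfan anaemia. It had 130.2, 126 and 132 CPM in XKO, against 173, 181 and 153 CPM in XWT. No XKO library reached XWT, and the log2 fold change was -0.38 ± 0.072 (SE, adjusted p = 0.00324). Rpl27 (ENSMUSG00000063316, chromosome 11 from 101442298 to 101445529, plus strand) had 253, 264 and 259.8 CPM in XKO, against 361, 329 and 302 CPM in XWT. The groups were apart, the log2 fold change was -0.35 ± 0.073 (SE, adjusted p = 0.00591), and the call was lost without XKO 1.

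Rpl10 (ENSMUSG00000008682, chromosome X from 74270812 to 74273135, plus strand) joins the large subunit late in its assembly and lies near the site of peptide bond formation. It had 697, 697 and 727 CPM in XKO, against 956, 926 and 803 CPM in XWT. XWT 3 was the lowest XWT library and above XKO, with a log2 fold change of -0.34 ± 0.074 (SE, adjusted p = 0.00859). Rpl32 (ENSMUSG00000057841, chromosome 6 from 115805505 to 115808747, minus strand) had 373, 349 and 361 CPM in XKO, against 430.1, 549 and 435 CPM in XWT. XWT 2 was well above XWT 1 and XWT 3, which were alike, and all were above XKO. The log2 fold change was -0.39 ± 0.088 (SE, adjusted p = 0.0119). Rpl31 (ENSMUSG00000073702, chromosome 1 from 39367842 to 39371911, plus strand), a protein at the mouth of the peptide exit tunnel, had 329.7, 315 and 320.3 CPM in XKO, against 369, 434 and 384 CPM in XWT. No XKO library reached XWT here either, with a log2 fold change of -0.30 ± 0.072 (SE, adjusted p = 0.0154). The calls of Rpl10, Rpl32 and Rpl31 were each lost without 2 or 3 of the XKO libraries in turn, and none of them without an XWT library.

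Besides the stalk gene Rplp2, large subunit genes called lower were also Rpl12, Rpl37a, Rpl26, Rpl10a, Rpl37, Rpl7 and Rpl22. Their log2 fold changes ran from -0.30 for Rpl26 to -0.23 for Rpl22. Each of the 7 calls, like that of Rplp2, was lost without any 1 of the XKO libraries. Those of Rpl12, Rpl26, Rpl10a, Rpl37, Rpl7 and Rpl22 were also lost without XWT 2. Without XWT 1, those of Rpl26, Rpl10a, Rpl37 and Rpl7 were lost as well. Library size alone lost the calls of Rpl37a, Rpl10a, Rpl37, Rpl7 and Rpl22. Just outside the threshold stood Rpl35, with -0.25 ± 0.078 (SE, edgeR adjusted p = 0.0517), and Rpl39, with -0.23 ± 0.075 (adjusted p = 0.0581). Rpl35 and Rpl39 were both called lower by the authors' deposited values. Opposite-strand genes overlap Rpl31 (Tbc1d8, 25.27% of its exonic bases), Rpl35 (Wdr38, 66.16%, and Arpc5l, 5.0%) and, over smaller stretches, Rpl32, Rpl10a and Rpl12 (1.56% to 5.5%). The strand setting of the counting is not given, so reads of these genes cannot be told apart there. Tbc1d8 had from 2454 to 2860 counts in the 6 libraries, Wdr38 from 1 to 13 and Arpc5l from 947 to 1229.

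Rplp0, Rplp1 and Rplp2 encode the acidic stalk of the large subunit, which recruits the elongation factors. Rplp2 (ENSMUSG00000025508, chromosome 7 from 141447370 to 141451585, plus strand) had 307, 294 and 300.3 CPM in XKO, against 374, 405 and 336 CPM in XWT. Its groups were apart, with a log2 fold change of -0.31 ± 0.074 (SE, adjusted p = 0.0157). Rplp0 had 1317, 1340.5 and 1346 CPM in XKO, against 1673, 1691 and 1317 CPM in XWT. XWT 3 lay within the XKO range, and the log2 fold change of -0.23 ± 0.088 (SE, adjusted p = 0.103) did not pass. Rplp1 had 688, 663 and 674 CPM in XKO, against 606, 965 and 766 CPM in XWT. The XKO libraries lay close together while XWT 1 was below them and XWT 2 far above, and the log2 fold change of -0.21 ± 0.14 (SE, adjusted p = 0.357) did not pass.

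Levels of different genes are compared per length, on the FPKM scale of the authors. By level, Rplp1 was the highest of all tested ribosomal protein genes, with 1345 ± 25.8 FPKM in XKO and 1559 ± 363 FPKM in XWT (SD, n = 3 each). In the large subunit Rplp0 followed, with 799.8 ± 8.94 FPKM in XKO and 939 ± 132 FPKM in XWT, and then Rpl36, with 481 ± 8.09 FPKM in XKO and 576 ± 126 FPKM in XWT. By CPM, Rpl36 had 188, 187 and 182 CPM in XKO, against 177, 272 and 214 CPM in XWT. XWT 1 was below and the other XWT libraries above XKO, with a log2 fold change of -0.25 ± 0.13 (SE, adjusted p = 0.213). The median level over the tested large subunit genes was 163 FPKM in XKO and 182 FPKM in XWT, and over the small subunit genes it was 199 FPKM in XKO and 235 FPKM in XWT.

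In the small subunit, Rps14 had the smallest p. It is a protein of the platform of the subunit whose partial loss underlies the anaemia of the human myelodysplastic 5q- syndrome. It stood at 398, 393 and 386 CPM in XKO, against 528, 641 and 474 CPM in XWT. All XWT libraries were well above the XKO range, and the log2 fold change was -0.48 ± 0.093 (SE, adjusted p = 0.00398). Rps13 (ENSMUSG00000090862, chromosome 7 from 116331505 to 116334195, minus strand) had 174, 161 and 191 CPM in XKO, against 206, 221 and 209.9 CPM in XWT. It was the only one of the 23 called genes with a larger SD of log2 CPM in XKO than in XWT, and its log2 fold change was -0.28 ± 0.072 (SE, adjusted p = 0.0234).

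Rps27l (ENSMUSG00000036781, chromosome 9 from 66946086 to 66949516, plus strand), a paralog of Rps27 known in human cells as a target of p53, had 65.0, 66.7 and 65.2 CPM in XKO, against 83.6, 79.5 and 72.8 CPM in XWT. Its groups were apart, with a log2 fold change of -0.26 ± 0.069 (SE, adjusted p = 0.0251). Rps26 (ENSMUSG00000025362, chromosome 10 from 128624534 to 128626747, minus strand), which contacts messenger RNA upstream of the codon being read, had 357, 376 and 369 CPM in XKO, against 522, 465 and 390.2 CPM in XWT. The XWT libraries were spread widely, from well above XKO in XWT 1 to just above it in XWT 3, and the log2 fold change was -0.32 ± 0.090 (SE, adjusted p = 0.0309). Rps7 (ENSMUSG00000061477, chromosome 12 from 28630854 to 28635953, minus strand), one of the ribosomal proteins that bind MDM2, had 373, 382 and 371 CPM in XKO, against 469, 481 and 402 CPM in XWT. XWT 3 was the XWT library nearest to XKO, with a log2 fold change of -0.26 ± 0.074 (SE, adjusted p = 0.032). Rps4x was called as well, with a log2 fold change of -0.27 ± 0.080 (SE, adjusted p = 0.0424). Of the 9 calls, that of Rps14 held without each library in turn and the other 8 were lost with library size alone. Those of Rps26, Rps7 and Rps4x were lost without any 1 of XKO 1, XKO 2, XKO 3, XWT 1 and XWT 2. That of Rps13 was lost without XKO 1, XKO 2 or XWT 2, and that of Rps27l without any 1 XKO library or XWT 1.

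Just outside the threshold stood Rps23, with -0.22 ± 0.072 (SE, edgeR adjusted p = 0.061), and Rps15, with -0.24 ± 0.084 (adjusted p = 0.0677). Rps23 and Rps15 were both called lower by the authors' deposited values. By level, the highest small subunit genes were Rps3a1, with 555 ± 8.94 FPKM in XKO and 622 ± 35.2 FPKM in XWT (SD, n = 3 each), Rps15, with 522 ± 6.75 FPKM in XKO and 621 ± 84.0 FPKM in XWT, and Rps29, with 444 ± 21.1 FPKM in XKO and 494 ± 100.4 FPKM in XWT. By CPM, Rps3a1 had 544, 538 and 555 CPM in XKO, against 592, 646 and 589 CPM in XWT, and Rps15 had 326, 333 and 334 CPM in XKO, against 359.9, 451 and 364 CPM in XWT. Both were apart in every library without passing the test. Rps29 had 321, 293 and 313 CPM in XKO, against 265, 398 and 367 CPM in XWT, where XWT 1 lay below all XKO libraries, with a log2 fold change of -0.15 ± 0.13 (SE, adjusted p = 0.462). Rpsa, known also as the laminin receptor, had 809, 819.6 and 807 CPM in XKO, against 1234, 1013 and 804 CPM in XWT. XWT 1 was highest and XWT 3 lay below all XKO libraries, and the log2 fold change of -0.32 ± 0.12 (SE, adjusted p = 0.108) did not pass. Rpsa was called lower by the authors' deposited values. Rps6, the substrate of the S6 kinases, had 514, 536 and 539 CPM in XKO, against 673, 609 and 537 CPM in XWT. XWT 3 lay within the XKO range, with a log2 fold change of -0.20 ± 0.080 (SE, adjusted p = 0.118).

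Start regions were read from the RefSeq promoter table (GRCm38.p6, 250 bases before to 50 after the start of each gene). It holds 64 of the 84 genes, 42 of them with a start within 50 bases of the deposited one. A run of at least 8 pyrimidines (C or T on the gene's strand) within 25 bases of the start was present in 30 of the 64 (46.88%), beside 19.68% of all 32817 windows in the table. The motif CCGGAAG, bound by ETS-family factors and searched on both strands of the whole window, was present in 25 of 64 (39.06%), beside 8.86% of all windows. The GC box GGGCGG was present in 60.94% of the 64, beside 35.63% of all windows, the YY1 motif AAGATGG in 14.06%, beside 6.34%, and TATAAA in 9.38%, beside 13.62%, each searched on both strands. Of the 16 matched genes called lower, 4 had the pyrimidine run and 7 had CCGGAAG, and of the 48 others 26 and 18 did. These are matches of letters in a window, not measurements of binding. Shown are 60 bases around the RefSeq start of the genes called lower that carry CCGGAAG within 25 bases of it, as examples of the motif, 5′ to 3′ on the gene's strand. Capitals mark CCGGAAG or, where the gene carries it on the other strand, CTTCCGG.
Rpl31 (chr1:39367816-39367875, plus strand): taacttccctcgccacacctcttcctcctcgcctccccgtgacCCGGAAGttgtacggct
Rpl26 (chr11:68901531-68901590, plus strand): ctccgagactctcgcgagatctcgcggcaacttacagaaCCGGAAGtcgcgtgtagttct
Rpl37 (chr15:5116564-5116623, plus strand): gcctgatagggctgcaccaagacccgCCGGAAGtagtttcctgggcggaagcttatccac
Rps27l (chr9:66946051-66946110, plus strand): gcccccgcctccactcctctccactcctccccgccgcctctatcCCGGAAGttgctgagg
Rps7 (chr12:28635934-28635993, minus strand): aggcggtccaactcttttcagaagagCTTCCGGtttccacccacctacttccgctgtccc
The motif starts at position 9 of Rpl31, 5 of Rpl26 and 10 of Rps27l, counted from the first base of the transcript, and at -23 of Rpl37 and -14 of Rps7, counted back from the base before it.

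Some ribosomal proteins have a paralog, often one known from a single tissue. By level, each main gene was above its paralog: Rpl7 had 194 FPKM in XKO and 231 FPKM in XWT, against Rpl7l1 with 29.4 FPKM in XKO and 32.6 FPKM in XWT. Rpl22 had 63.8 FPKM in XKO and 74.9 FPKM in XWT, against Rpl22l1 with 9.72 FPKM in XKO and 8.62 FPKM in XWT, and Rps27 had 134 FPKM in XKO and 190.5 FPKM in XWT, against Rps27l with 79.98 FPKM in XKO and 96.2 FPKM in XWT. Rpl36a and Rpl39 stood at 81.2 FPKM in XKO and 90.3 FPKM in XWT and at 165 FPKM in XKO and 194 FPKM in XWT, while Rpl36al and Rpl39l were below 1 FPKM in both groups. The level of Rpl36al is uncertain, since 24.54% of its exonic bases are shared with a gene on the same strand.

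Rpl22 was called lower, with 187, 186 and 187 CPM in XKO, against 204, 241 and 211 CPM in XWT. Its groups did not overlap, and its log2 fold change was -0.23 ± 0.071 (SE, adjusted p = 0.0495). The call was lost with the replicate block, DESeq2 size factors, the stricter filter and library size alone. It was also lost without XWT 2 and without each of the XKO libraries in turn. Its paralog Rpl22l1, which Rpl22 is known to repress in mice, had 21.30, 18.02 and 19.01 CPM in XKO, against 9.17, 22.63 and 19.72 CPM in XWT. XWT 1 stood alone at the bottom and the other 5 libraries were alike, with a log2 fold change of 0.17 ± 0.33 (SE, adjusted p = 0.765). Rpl7 was called lower, with 519.9, 515 and 537 CPM in XKO, against 664, 637 and 559.6 CPM in XWT. Its log2 fold change was -0.24 ± 0.073 (SE, adjusted p = 0.0411). That call was lost with the replicate block, with library size alone, and without XWT 1, XWT 2 and each of the XKO libraries in turn. Rpl7l1 had 100.3, 106 and 104 CPM in XKO, against 119, 119 and 104 CPM in XWT. XWT 3 lay within the XKO range, and the log2 fold change of -0.14 ± 0.070 (SE, adjusted p = 0.193) did not pass. Rps4x, on the X chromosome, was called lower, with 635, 649 and 659.9 CPM in XKO, against 861, 792 and 685 CPM in XWT. Its copy Rps4l, which the table does not list as protein-coding and which is not among the 84, had 4.54, 6.50 and 4.51 CPM in XKO, against 5.79, 7.68 and 5.38 CPM in XWT, with overlapping groups and a log2 fold change of -0.28 ± 0.18 (SE, adjusted p = 0.325).

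Rpl39 had 241, 239 and 233 CPM in XKO, against 257, 309.7 and 267 CPM in XWT. Its groups did not overlap, but the log2 fold change of -0.23 ± 0.075 (SE, adjusted p = 0.0581) did not pass. Rpl39l, best known from testis, had 16, 3 and 5 counts in XKO and 21, 17 and 29 counts in XWT. At such counts its log2 fold change of -1.54 ± 0.51 (SE, adjusted p = 0.0611) did not pass either. Rpl3 had 659, 631 and 630.1 CPM in XKO, against 725, 792 and 662 CPM in XWT, with a log2 fold change of -0.18 ± 0.074 (SE, adjusted p = 0.113), and its muscle paralog Rpl3l was not tested. Rpl10l, the testis paralog of the called gene Rpl10, had 0 counts in all 6 libraries. Rpl36a had 134, 132 and 139 CPM in XKO, against 147, 159 and 144 CPM in XWT. Its groups were apart, with a log2 fold change of -0.15 ± 0.064 (SE, adjusted p = 0.137) that did not pass. Rpl36al had 0.516, 0.715 and 0.947 CPM in XKO, against 0.594, 0.707 and 0.544 CPM in XWT, overlapping values with a log2 fold change of 0.24 ± 0.35 (SE, adjusted p = 0.683).

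Rps27 and Rps27l encode closely related proteins, and Rps27 has a further protein-coding copy, Rps27rt, that is identical to it over the coding sequence. The coding sequences (GENCODE M21, GRCm38, 255 bases each) show how far reads of these genes can be assigned. Those of Rps27 (chromosome 3) and Rps27rt (chromosome 9) differ at 0 bases, and that of Rps27l (chromosome 9) differs from them at 61 bases, an identity of 76.08%. Both sequences are given 5′ to 3′ on the coding strand, with capitals at the 61 bases that differ between them.
Rps27: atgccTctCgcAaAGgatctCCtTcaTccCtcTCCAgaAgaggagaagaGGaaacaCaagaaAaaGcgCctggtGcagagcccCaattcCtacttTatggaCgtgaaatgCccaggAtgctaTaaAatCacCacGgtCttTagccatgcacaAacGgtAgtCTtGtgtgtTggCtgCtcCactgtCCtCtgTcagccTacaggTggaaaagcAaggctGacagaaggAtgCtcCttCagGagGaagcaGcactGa
Rps27l: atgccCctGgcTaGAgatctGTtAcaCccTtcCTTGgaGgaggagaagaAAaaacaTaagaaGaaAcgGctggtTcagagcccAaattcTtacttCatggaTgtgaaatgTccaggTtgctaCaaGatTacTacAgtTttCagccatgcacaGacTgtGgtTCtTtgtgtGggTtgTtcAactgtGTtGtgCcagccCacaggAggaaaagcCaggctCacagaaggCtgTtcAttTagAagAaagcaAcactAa
Rps27 had 144, 106 and 172 CPM in XKO, against 214, 214 and 169 CPM in XWT, with a log2 fold change of -0.50 ± 0.18 (SE, adjusted p = 0.121) and XWT 3 within the XKO range. Rps27rt had 1642, 3174 and 799 counts in XKO and 2447, 1085 and 1809 in XWT. Among the XKO libraries, Rps27 was lowest and Rps27rt highest in XKO 2, and Rps27 was highest and Rps27rt lowest in XKO 3. With the reads of all near-identical copies added, Rps27 stood at 197, 209.7 and 198 CPM in XKO, against 305, 251 and 227 CPM in XWT. The groups then did not overlap, and the log2 fold change was -0.37 ± 0.092 (SE, edgeR adjusted p = 0.0168). This sum was chosen after the data were seen.

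Near-identical copies are a general limit for these genes, since messages of ribosomal proteins have often been copied back into the genome. Among the transcripts of GENCODE M21, 614 annotated genes, 597 of them processed pseudogenes, matched 80 of the 84 ribosomal protein genes at 95% identity or more over at least 80% of the copy. Of these copies, 464 had reads. They held from 6.63% to 7.42% of the reads of genes and copies together in the 6 libraries. With the reads of copies added to their genes, the 23 calls stayed and Rpl35 and Rps27 joined them, beside 8.42% of all tested genes called lower.

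For a few genes the value depended on how reads were split. Rpl17 had counts of 7538, 4862 and 2257 in XKO and 4451, 8278 and 7457 in XWT. Its processed pseudogene Rpl17-ps10, at 99.28% identity, had 2329, 5297 and 7811 counts in XKO and 3739, 3292 and 2424 in XWT. In XKO, the library with the lowest count of Rpl17 had the highest of Rpl17-ps10, and the reverse. Gene and copies together gave counts of 12191, 12640 and 12381 in XKO and 10692, 14239 and 12420 in XWT, and the SD of log2 CPM among XKO libraries was 0.87 for the gene and 0.033 for the sum. The log2 fold change was -0.52 ± 0.51 (SE) for the gene and -0.079 ± 0.079 for the sum, and neither passed. Rps10 had 86, 75 and 76 counts in XKO and 48, 63 and 76 counts in XWT, while Rps10-ps2 had 3041, 3402 and 3373 counts in XKO and 4060, 4070 and 3388 in XWT. The log2 fold change of Rps10, 0.28 ± 0.20 (SE, adjusted p = 0.382), turned to -0.29 ± 0.095 (SE, edgeR adjusted p = 0.0598) with the copies, and neither passed. Rpl21, with 58 copies the gene with the most, had 53.1, 79.1 and 52.4 CPM in XKO, against 90.3, 89.5 and 57.5 CPM in XWT. Its SD of log2 CPM among XKO libraries was 0.34 alone and 0.054 with the copies.

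**Figure D4:**
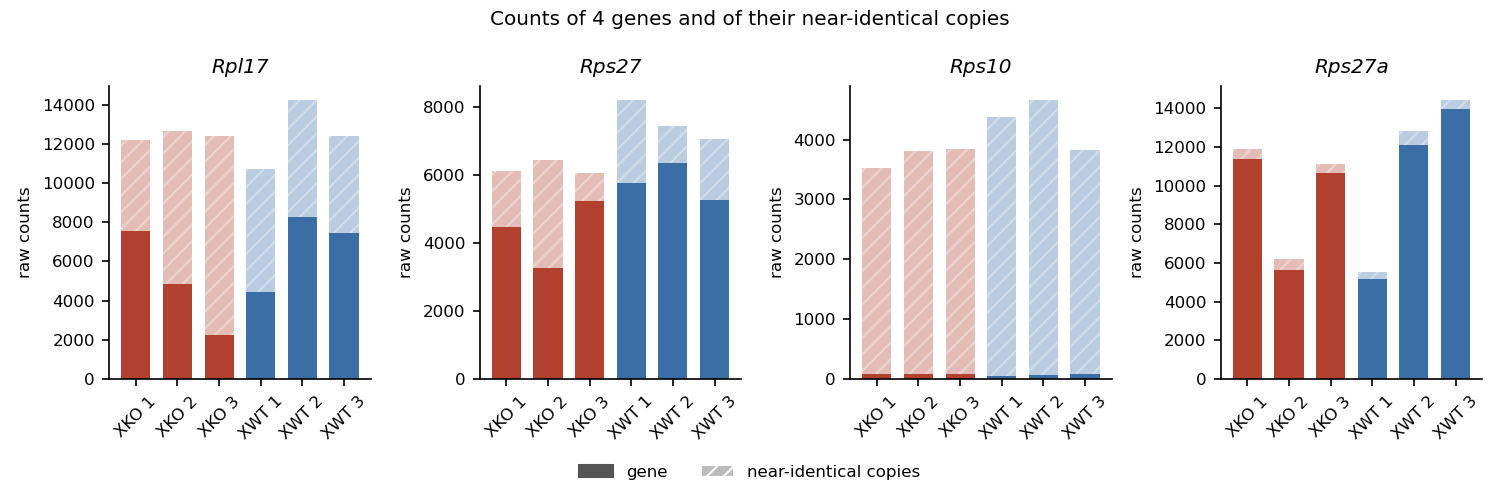
Raw counts of Rpl17, Rps27, Rps10 and Rps27a (solid) with the counts of their near-identical copies stacked on top (hatched), in XKO 1 to 3 (red) and XWT 1 to 3 (blue). The solid bars of Rpl17 run from 2257 to 8278 counts while the stacked heights run from 10692 to 14239; nearly all reads of Rps10 lie in copies, and the stacked heights of Rps27a stay uneven.

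Rps27a and Fau encode ribosomal proteins made as fusions with ubiquitin or a ubiquitin-like protein, and by the naming rule only Rps27a is among the 84. Rps27a had 367, 183 and 348 CPM in XKO, against 192, 407 and 446 CPM in XWT. XKO 2 and XWT 1 were far below the other 4 libraries, so that the groups overlapped, with a log2 fold change of -0.22 ± 0.46 (SE, adjusted p = 0.794). Adding copies left this spread, with an SD of log2 CPM among XKO libraries of 0.56 alone and 0.51 with them. Fau was called lower, with 389.9, 387 and 386 CPM in XKO, against 425, 573 and 452 CPM in XWT. All XWT libraries were above XKO, with a log2 fold change of -0.32 ± 0.095 (SE, adjusted p = 0.0411), and the call was lost without any 1 XKO library, without XWT 2 and with library size alone.

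Of the 82 tested genes, 5 had a log2 fold change above 0, and none of the 5 was called. Rpl23a lies at the exit tunnel, where the signal recognition particle docks. It had 169.8, 160.4 and 179 CPM in XKO, against 112, 126 and 166 CPM in XWT. XKO 1 and XKO 3 were above every XWT library and XKO 2 was below XWT 3, with a log2 fold change of 0.33 ± 0.12 (SE, adjusted p = 0.105). DESeq2 called Rpl23a higher (adjusted p = 0.0297), as did edgeR without XWT 3 (adjusted p = 0.000493), with the replicate block (0.00686) and with no filter (0.00044), over a range from 0.00044 to 0.334 for all alternatives. With the reads of its copies added, its log2 fold change was 0.15 ± 0.085 (SE, edgeR adjusted p = 0.251). Tlcd1, on the opposite strand, overlaps 59.74% of its exonic bases and had at most 54 counts in a library. The other 4 were Rpl24, Rps10, Rpl36al and Rpl22l1, all with a mean under 25 CPM in XWT.

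Rpl24 had 1.64, 2.67 and 1.40 CPM in XKO, against 0.854, 1.72 and 1.63 CPM in XWT, and Rpl13a had 15.8, 14.0 and 15.0 CPM in XKO, against 16.1, 16.4 and 15.7 CPM in XWT. Both, like Rpl36al and Rps10, share exonic bases with a gene on the same strand that had 0 counts in every library, so their counts are uncertain. The shared part was 46.99% in Rpl24, 29.38% in Rpl13a, 24.54% in Rpl36al and 20.55% in Rps10. Near-identical copies held 77.2% of the reads of Rpl24 and its copies together, and 50.6% of those of Rpl36al. The log2 fold change of Rpl24 was 0.43 ± 0.31 (SE) alone and 0.015 ± 0.17 with copies added. That of Rpl36al was 0.24 ± 0.35 alone and 0.23 ± 0.29 with them, and none of these passed. Nearest to 0 were Rpl9 and Rpl7a, with log2 fold changes of -0.0039 ± 0.067 and -0.0022 ± 0.21 (SE). The libraries of Rpl9 lay close together, with 369, 377 and 376 CPM in XKO, against 366, 403 and 356 CPM in XWT. Those of Rpl7a did not, with 163, 119 and 138 CPM in XKO, against 104, 143 and 173 CPM in XWT. Rpl5 and Rpl11, which bind MDM2 when ribosome assembly fails, had log2 fold changes of -0.11 ± 0.066 and -0.17 ± 0.15 (SE), and neither passed. Fam69a, on the opposite strand, overlaps 24.31% of the exonic bases of Rpl5.

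Properties of the genes were set beside their fold changes as a description, without a test. The 84 genes lie on 19 chromosomes, with 14 of them on chromosome 7. The median length of their exonic bases was 1754.5, beside 3917 for all tested genes, and their median GC content was 50.8%, beside 49.4%. Across the 82 tested genes, the log2 fold change had a Spearman correlation of 0.11 with length, -0.052 with GC content and -0.28 with the mean FPKM in XWT. These are values over genes of the same 6 libraries, not over independent points. The XWT level also enters the fold change, so the last correlation cannot be read as a property of highly expressed genes. In 30 of the tested genes lie 58 annotated small nucleolar RNAs. Of these 30, 8 were called lower, with a median log2 fold change of -0.21, and of the 52 others 15, with a median of -0.22. With trends of the counts with length and GC content removed, 11 large and 10 small subunit genes were called lower, and the median over both was -0.15. Of all tested genes, 9.02% were called lower under that setting, and their median was 0.00021.

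Genes that work with ribosomal proteins were set beside them, and their counts stand beside the 7.99% of all tested genes called lower and the 6.00% called higher. Elongation and initiation factors and genes listed with TOP messages (the TOP list) had 5 of 32 tested members lower and 0 higher. The median log2 fold change was -0.09. No TOP tract was looked for in these genes, so not all of them are shown to carry one. At an unadjusted p under 0.05, 4 were higher and 11 lower. The share of all tested genes at that threshold was not counted, here or for the lists below. Smallest in p was Eef1b2, which recharges the elongation factor that delivers transfer RNA, with 222 ± 4.72 CPM in XKO and 276 ± 22.1 CPM in XWT (SD, n = 3 each) and a log2 fold change of -0.31 ± 0.071 (SE, adjusted p = 0.0116). Next came the initiation factor subunits Eif3k, with -0.32 ± 0.079 (SE, adjusted p = 0.0161), and Eif3f, with -0.33 ± 0.089 (SE, adjusted p = 0.0273), and Rack1, a scaffold on the small subunit, with -0.30 ± 0.082 (SE, adjusted p = 0.0292). The 5 became 0 without any 1 XKO library and 1 without XWT 1 or XWT 2. Without XWT 3, 14 were called lower and 5 higher, beside 14.8% of all tested genes lower and 2073 of 14636 higher. The 0 higher became 2 with library size alone and with DESeq2. Genes of mitochondrial ribosomal proteins had 0 higher and 0 lower of 77 tested (edgeR; DESeq2 also 0 and 0) and a median of -0.06. At an unadjusted p under 0.05, 1 was higher and 4 were lower. Without XWT 3, 6 (7.79%) were called lower, beside 14.8% of all tested genes. Smallest in p among the mitochondrial ribosomal protein genes were Mrpl45, with -0.24 ± 0.078 (SE, adjusted p = 0.0584), and Mrpl33, with 0.22 ± 0.082 (SE, adjusted p = 0.0884).

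Where ribosome assembly genes passed the test they were higher in XKO, with 13 of 50 tested members higher and 0 lower (edgeR; DESeq2 likewise 13 and 0) and a median of 0.15. At an unadjusted p under 0.05, 19 were higher and 0 lower. Mdn1, an ATPase that removes assembly factors from the maturing large subunit, averaged 78.5 ± 2.04 CPM in XKO and 56.5 ± 5.18 CPM in XWT (SD, n = 3 each), with a log2 fold change of 0.47 ± 0.075 (SE, adjusted p = 0.000977). Gnl3, the nucleolar GTPase nucleostemin, averaged 34.0 ± 1.71 CPM in XKO and 23.0 ± 4.16 CPM in XWT, with 0.56 ± 0.11 (SE, adjusted p = 0.00548). Heatr1, of the early small subunit processome, had 0.33 ± 0.072 (SE, adjusted p = 0.00839), and Tsr1, of late small subunit maturation, had 0.39 ± 0.088 (SE, adjusted p = 0.0107). The 13 became 4, 2 and 5 without XKO 1, XKO 2 and XKO 3, and 8 without XWT 2. Without those XKO libraries in turn, 316 of 14652, 274 of 14666 and 300 of 14670 tested genes were called higher. Without XWT 2, 460 of 14711 were. Mdn1 and Gnl3 were called under each of 15 alternative settings.

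Among genes of mTORC1 and of TOP message control, 6 of 33 were lower (18.2%, beside 7.99% of all tested genes) and 3 higher, a share near the 6.00% of all tested genes called higher, with a median of -0.05. The sestrins, which restrain mTORC1, were lower: Sesn1, with -0.42 ± 0.064 (SE, adjusted p = 0.000677), Sesn3, with -0.69 ± 0.10 (SE, adjusted p = 0.000677), and Sesn2, with -0.35 ± 0.084 (SE, adjusted p = 0.0166). Eif4ebp2, which holds the cap-binding factor, was also lower, with -0.34 ± 0.069 (SE, adjusted p = 0.0052). The 6 became 3, 4 and 3 without XKO 1, XKO 2 and XKO 3 and 4 without XWT 2. The 3 became 1, 0 and 0 without XKO 1, XKO 2 and XKO 3 and 1 without XWT 2. Counts of all tested genes called higher without these libraries are given above. Of 9 tested S6 kinase genes, Rps6kb1, which encodes the kinase of ribosomal protein S6 downstream of mTORC1, was higher, with 35.8, 37.1 and 36.3 CPM in XKO, against 26.9, 24.5 and 33.4 CPM in XWT. No XKO library overlapped XWT, and the log2 fold change was 0.37 ± 0.10 (SE, adjusted p = 0.0296). Rps6kb1 stands in the mTORC1 list too, as 1 of the 3 called higher there. Rps6ka1 was lower, with -0.27 ± 0.070 (SE, adjusted p = 0.0222). These 2 of 9 calls, 1 in each direction, are near the shares of all tested genes. Neither call held without any 1 of XKO 1, XKO 2, XKO 3, XWT 1 and XWT 2.

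Of 18 genes of ribosome surveillance and the p53 response, 5 were lower (27.8%, beside 7.99% of all tested genes) and 0 higher (edgeR; 6 and 0 with DESeq2), with a median of 0.05. At an unadjusted p under 0.05, 6 were lower and 6 higher, and the 5 became 3 without any 1 XKO library. The 0 higher became 3 with library size alone and without XWT 3, where 1158 of 14333 and 2073 of 14636 tested genes were higher. The 0 became 1 with no filter and with the replicate block. Smallest in p was the cell cycle inhibitor gene Cdkn1a, with 157, 169 and 166 CPM in XKO, against 239.8, 234 and 215 CPM in XWT. Its groups were apart, with a log2 fold change of -0.49 ± 0.067 (SE, adjusted p = 0.000317). Zmat3, known as a p53 target, had -0.47 ± 0.068 (SE, adjusted p = 0.000499), and Sesn1 and Sesn2, given above, stand in this list too. With library size alone the median of all tested genes was 0.069 in place of 0.0014. The sign of the median turned for the mTORC1 list (0.024) and the mitochondrial ribosomal proteins (0.014), while the large and small subunit medians stayed below 0 (-0.14 and -0.16).

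**Figure D5:**
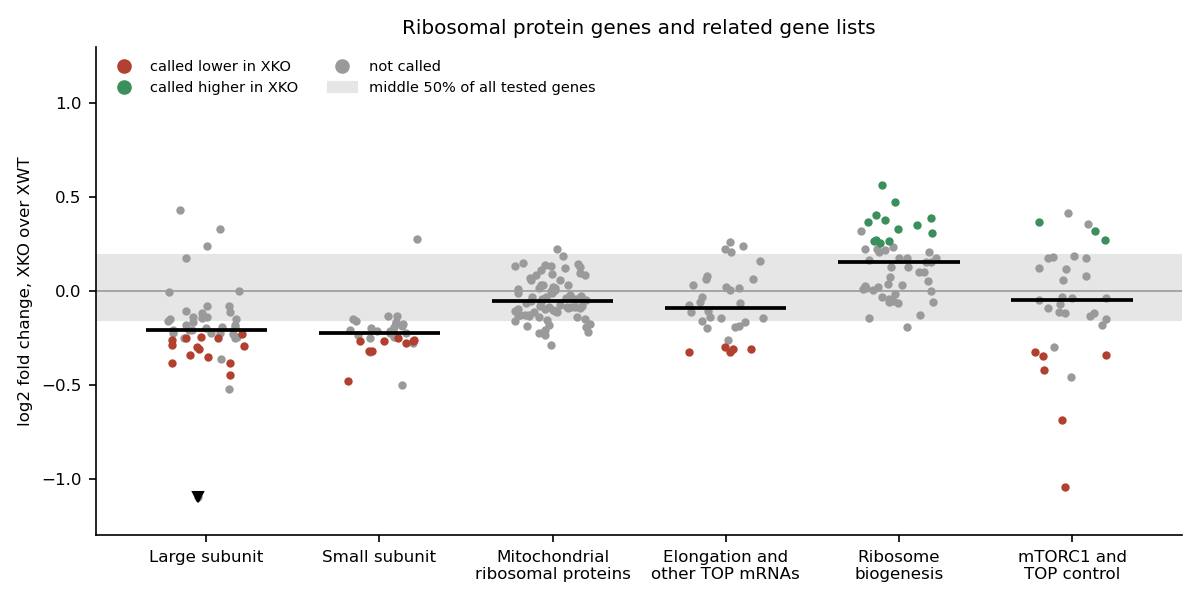
Log2 fold change of XKO over XWT of each tested gene in the large and small subunit and in 4 related lists; red genes were called lower, green ones higher, black lines are medians and the grey band is the middle 50% of all tested genes. The medians are -0.21 and -0.22 for the large and small subunit and 0.15 for ribosome biogenesis; the black triangle is Rpl39l, at -1.54 below the axis.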

How the data were processed

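Messenger RNA of 3 XKO and 3 XWT samples of LPS-primed bone marrow-derived macrophages was sequenced, with libraries made with an Illumina RNA kit, per the labels' protocols. Bowtie 0.12.2 and 2 genome builds, mm8 and mm10, appear in the submitters' processing notes without a stated use. Not given in the sources used here were the counting step, its annotation and its strand setting. The authors deposited 1 table. Its count columns hold whole reads per Ensembl gene, unscaled, per the file headers. Its FPKM columns, made by the authors, are per kilobase and per scaled library total, and were used for levels and not tested. The authors also deposited scaled group means, a signal that was not used, log2 fold changes (XKO over XWT), and a p-value with its adjusted form, which served as an alternative. Its tool is not stated, and DESeq2 run on the counts called the same numbers of ribosomal protein genes.

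All 54532 genes entered 1 fit with edgeR 4.0.16 in R 4.3.3: filterByExpr (14333 kept), TMM, a robust quasi-likelihood test with no covariate, and Benjamini-Hochberg adjustment over all tested genes at 0.05. With 28354866 to 30891729 counts per library and 4 residual degrees of freedom, the biological coefficient of variation was 0.0865. SEs were obtained by dividing each log2 fold change by the root of its F statistic. Code was tested on simulated counts. Named always are the 6 calls of smallest p per subunit, paralog pairs, stalk genes, Rpsa, Rps27a and the 3 highest by FPKM per subunit; other members are named freely. A few genes this rule would name are left out here, while counts and medians include them. Related lists give up to 4 calls of smallest p, or 2 genes where none is called. The members, lists and rules were chosen with earlier results of these data known. Coordinates are those of the table; for 82 of the 84 genes they equal GENCODE M21 (GRCm38), from which copies, small nucleolar RNAs and coding sequences come. Start regions come from RefSeq (GRCm38.p6). Alternatives were other scaling, filters, DESeq2 1.42.0, a replicate block, length and GC trends, reads of pseudogenes and leaving out each library; the reads of near-identical copies and the authors' table were added after the data were seen. Replicate numbers were not taken as pairs.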

Additional observations from a re-analysis of the deposited data

How the results depend on the processing

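With 3 libraries a group, the calls rest on a small spread within XKO and a wide one within XWT, and decreases of the size found here pass or miss the threshold with single libraries; the cause of each change below was not tested, beyond the smaller number of samples when a library is left out. Large subunit genes called lower numbered 9 with library size alone, 24 with no filter, and 3 to 31 without 1 library in turn; called higher was 1 with no filter, DESeq2, the replicate block and the authors' deposited table, and 0 to 1 without 1 library. Small subunit genes called lower numbered 1 with library size alone, 18 with no filter, 14 with DESeq2 and in the authors' deposited table, and 1 to 22 without 1 library. Of the 25431 genes in the fit with no filter, 1545 (6.08%) were called lower and 1289 higher.

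Genes of the TOP list called higher numbered 2 with library size alone, no filter, DESeq2, the replicate block and the authors' deposited table. They numbered 1 with DESeq2 size factors and with copies added, and 0 to 5 without 1 library. Those called lower numbered 8 with length and GC trends removed and 0 to 14 without 1 library. Ribosome biogenesis genes called higher numbered 2 to 15, and genes of mTORC1 and TOP control 0 to 4 higher and 3 to 6 lower, without 1 library. Mitochondrial ribosomal protein genes called higher numbered 1 with library size alone and with length and GC trends removed, and those called lower 3 with no filter and 0 to 6 without 1 library. The difference in the share of counts was -0.396 to -0.198 percentage points without 1 library. The other settings left these counts within 1.5 times.

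Same-numbered samples deviated with correlations of -0.080, -0.027 and -0.055, so the numbers were not taken to pair the samples. With the replicate block 15 large and 10 small subunit genes were lower and 1 large subunit gene was higher. This stands beside 7.86% of all tested genes called lower with that block. Of the 23 calls 21 were kept, those of Rpl7 and Rpl22 were lost, and 5 were added.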

Other observations

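The XWT libraries differed from one another in the ribosomal protein genes in a way that the genotype does not describe. Of the 82 tested genes, 77 were higher in XWT 2 than in XWT 3, with a median log2 difference of 0.23, and 61 were higher in XWT 2 than in XWT 1. Across the 82 genes, the log2 difference between XWT 2 and XWT 3 had a Spearman correlation of 0.36 with GC content and -0.032 with length. That between XWT 1 and XWT 2 had -0.11 with GC content and 0.15 with length. XKO 1 and XKO 2 differed by a median of 0.012. These are descriptions over genes that share their libraries, and no test was made.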
